A study of Canis lupus familiaris with 33 samples.

Results

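Among 23 biopsies of canine diffuse large B-cell lymphoma (DLBCL), the 7 tumours with the highest and the 7 with the lowest combined level of FOS and EGR1 were compared across all genes of the array. Each tumour was ranked by its index, the mean log2 value of FOS and EGR1, with each gene read from the probeset of highest mean over the 33 arrays of the study. The 14 tumours compared came from 14 dogs, and the other 9 tumours, called middle here, were used only where stated. The groups were chosen by these 2 genes, so their differences between the groups are a description and are not counted as results. The trends given below use the index itself as their predictor.

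FOS encodes a subunit of AP-1, the dimeric transcription factor that pairs FOS and JUN family proteins, and EGR1 encodes a zinc finger transcription factor. Both are immediate early genes, which are transcribed without new protein synthesis within minutes after growth factors, antigen receptor signals, mechanical stress or tissue handling act on a cell through MAP kinases and the factors SRF, ELK1 and CREB. Their RNA is short-lived, and phosphatases such as DUSP1 and RNA-binding proteins such as ZFP36 are induced with them and shut the response off. Stromal, endothelial and myeloid cells as well as lymphocytes mount this response, so a lymph node biopsy measures it over all of its cells.

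RNA of lymph node biopsies had been hybridised to Affymetrix Canine Genome 2.0 arrays, and the deposited values are log2 expression values normalised by RMA, which gives all arrays 1 common distribution. The FOS/EGR1-high tumours comprised 4 relapsed tumours, biopsied 32 to 152 days after the last treatment, and 3 treatment naïve tumours, from dogs aged 6.2 to 11.8 years. By the labels, the earlier drugs of the relapsed dogs were CHOP (sample 3), CHOP and later CCNU, L-Aspar and Pred (sample 18), Dox, Cytoxan and Pred (sample 12), and Dox and Pred followed by CCNU, L-Aspar and Pred (sample 9). The FOS/EGR1-low tumours comprised 7 treatment naïve tumours and 0 relapsed ones, from dogs aged 5.4 to 13.3 years. The middle group held 3 relapsed tumours, biopsied 13 to 672 days after the last treatment, and 6 treatment naïve tumours. Their dogs were aged 2.7 to 12.6 years, and middle sample 11 came from the same dog as high sample 12. The 10 arrays of healthy nodes came from 7 dogs euthanised for other conditions, of which 1 gave 4 arrays. They were set beside the tumours as a further level and entered no test.

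Some properties of the samples moved with the groups. Relapsed tumours made up 4 of 7 high and 0 of 7 low tumours (Fisher's exact test, two-sided p = 0.07). The RNA integrity number (RIN) averaged 9.46 ± 0.408 in high tumours and 9.84 ± 0.113 in low tumours (SD, n = 7 each; exact permutation test, two-sided p = 0.052). By the labels, every healthy array outside the dog that gave 4 had a lower RIN than all tumours. The part of RIN in the healthy levels was not tested. Age averaged 8.96 ± 2.2 years in high and 8.74 ± 3.08 years in low tumours (SD, n = 7 each; exact permutation test, two-sided p = 0.89). The labels gave no array day. It was read from dates in array names of the study's supplement, taking their sample numbers to be those of the labels. By these dates it was known for 6 tumours of each group. Of these, 3 high and 4 low tumours fell on day 1, 3 high and 1 low on day 2, and 0 high and 1 low on day 3. The B-cell markers CD79A and MS4A1 averaged 12.96 and 13.17 in high tumours and 13.14 and 13.38 in low tumours. PAX5, the marker used in the pathology of these cases, was dim, at a mean of 6.03 in high and 6.15 in low tumours. The 17 control probesets without a canine target averaged 2.79 to 4.56, so values near 4 were close to background.

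FOS ranged between 9.65 and 13.14 in high tumours with a median of 10.90, and between 6.66 and 8.73 in low tumours with a median of 7.75. EGR1 ranged between 9.59 and 12.63 in high tumours with a median of 10.33, and between 7.82 and 8.27 in low tumours with a median of 8.17. DLBCL sample 18, a relapsed tumour, stood apart with an index of 12.89, followed by sample 12 at 10.75. The last tumour inside the high group, sample 3, had an index of 9.80, and the first outside, sample 14, had 9.68. At the other end, sample 25 was the last inside the low group at 8.47, and sample 24 the first outside at 8.49. The cut at either end therefore fell between tumours of nearly equal index. The second probeset of each gene also ranked the groups apart. For FOS it lay at 6.42 to 9.52 in high and 5.99 to 6.29 in low tumours, and for EGR1 at 7.20 to 10.73 in high and 5.51 to 5.86 in low tumours. Healthy nodes had FOS levels of 7.05 to 9.60 and EGR1 levels of 9.22 to 11.61, so in the plot of both genes they overlapped the high tumours in EGR1 and lay among the low and middle tumours in FOS. The upper part of both ranges came from the dog that gave 4 arrays, at 9.42 to 9.60 in FOS and 10.82 to 11.61 in EGR1. The other healthy dogs lay at 7.05 to 7.86 in FOS and 9.22 to 10.26 in EGR1.

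**Figure D1:**
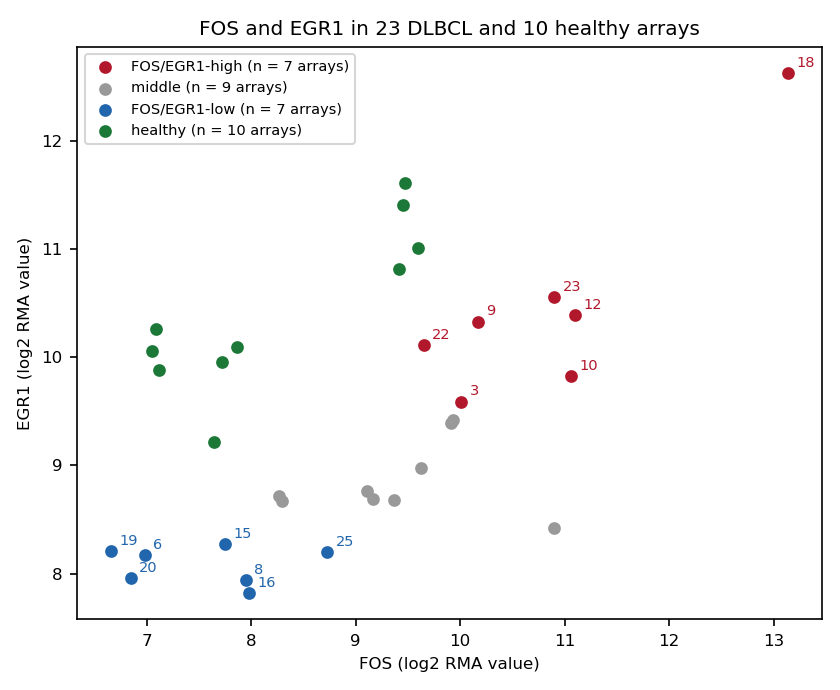
Log2 RMA value of EGR1 against that of FOS in each of the 33 arrays, coloured by group, with the DLBCL sample number beside each high and low tumour. The 7 high tumours lie at FOS levels of 9.65 to 13.14 with sample 18 alone at the upper right, and the 7 low tumours lie at 6.66 to 8.73. Healthy arrays reach 11.61 in EGR1 but not more than 9.60 in FOS, both in arrays of the dog that gave 4.

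The question asked of all other genes was which of them differed between FOS/EGR1-high and FOS/EGR1-low tumours. No gene passed an adjusted p of 0.05 in either direction (limma, Benjamini-Hochberg over 43035 probesets; 0% of the 15113 genes read, with the 2 index genes left out). The smallest adjusted p was 0.052. At an unadjusted p under 0.05, 902 genes (5.97%) had the higher mean in high tumours and 875 (5.79%) the lower. All 7 high tumours lay above all 7 low tumours in 42 genes (0.278%), and below them in 19 (0.126%). The median difference over all genes was -0.05 on the log2 scale, with 5773 positive and 9340 negative differences. Without sample 18, 0 genes passed again by their brightest probeset. A dimmer probeset of DUSP1 did pass (1.52, adjusted p = 0.021), the only 1 of all probesets outside FOS and EGR1. The counts at an unadjusted p under 0.05 without that tumour were 748 higher (4.95%) and 633 lower (4.19%). The differences given below are thus measured values of genes that did not pass, unless a sentence says otherwise.

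The largest ratios of difference to error were on the side of the high tumours. FGF7, a growth factor secreted by fibroblasts and other mesenchymal cells, lay at 5.92 to 7.96 in high tumours (median 7.43) and at 4.56 to 5.80 in low tumours (median 5.27). The groups did not overlap, and the means differed by 2.04 ± 0.31 on the log2 scale (SE; adjusted p = 0.052), a 4.12-fold difference. TCIM, a regulator of Wnt signalling in human cells, averaged 8.06 ± 0.52 in high and 6.53 ± 0.40 in low tumours (SD, n = 7 each), again without overlap. A dimmer probeset of TCIM averaged 7.19 in high and 6.40 in low tumours, and there the groups overlapped. MAP4K3, a kinase upstream of JNK, lay at 7.82 to 8.53 in high and 6.74 to 7.66 in low tumours. COX4I2, an oxygen-regulated isoform of a cytochrome c oxidase subunit, averaged 9.12 ± 0.24 in high and 8.08 ± 0.34 in low tumours (SD, n = 7 each). Its groups just overlapped, since low sample 25 reached 8.75 and high sample 12 was at 8.70. A second, dim probeset of COX4I2 averaged 4.75 in high and 4.90 in low tumours.

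The other genes of smallest p were more varied and included an importer of zinc, an endothelial gene, a quinone reductase and the initiator of coagulation. SLC39A8, the zinc importer, lay at 5.56 to 7.02 in high and 4.11 to 5.43 in low tumours. Middle sample 21 exceeded all of them at 10.18. The 3 other probesets of SLC39A8 were dimmer and differed by 0.81, -0.03 and -0.13. MYCT1, which is named as a MYC target and is expressed in endothelium, differed by 0.97 ± 0.16, and its second probeset by 1.04 ± 0.17 (SE). NQO1, a quinone reductase and classic NRF2 target, averaged 7.08 in high and 6.10 in low tumours, but its 2 other probesets differed by only 0.34 and 0.33. F3, tissue factor, averaged 10.76 ± 0.64 in high and 9.12 ± 0.50 in low tumours (SD, n = 7 each). MTUS1, a microtubule-associated protein, differed by 1.28, and each of its 3 other probesets differed in the same direction, by 0.56 to 0.97.

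On the opposite side the differences were small. ZMIZ2, a coactivator related to the PIAS proteins, lay at 8.06 to 8.49 in high and 8.57 to 9.05 in low tumours, without overlap (difference -0.51 ± 0.10, SE; adjusted p = 0.093). L3MBTL2, a Polycomb-type repressor, averaged 8.84 in high and 9.27 in low tumours, and CNOT9, a subunit of the CCR4-NOT deadenylase, 8.57 in high and 9.06 in low tumours. RILPL2 averaged 8.68 in high and 9.15 in low tumours, C1H9orf40 6.26 in high and 6.60 in low tumours, and LOC609136 8.66 in high and 8.96 in low tumours. Of the 10 genes of smallest p on this side, 4 were measured near background. These were OR10T1 (4.21 in high and 4.67 in low tumours), ZNF214 (4.13 in high and 4.92 in low), TSPEAR (4.27 in high and 4.61 in low) and LOC483905 (3.98 in high and 4.32 in low). ZNF214 had the largest difference of the 10, at -0.79.

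Further genes without overlap are named here after their values had been seen. LGALS3, galectin-3, averaged 10.50 in high and 8.65 in low tumours, and GSN, the actin-severing protein gelsolin, 12.60 in high and 11.01 in low tumours. TJP1 and FERMT2, which act at cell junctions and integrins, differed by 0.92 and 0.80. GPAT3, an enzyme of triglyceride synthesis, averaged 6.60 in high and 5.10 in low tumours. FST, the activin antagonist follistatin, differed by 0.94, and PRRX1, a mesenchymal homeobox factor, by 0.92. C5AR1, the receptor of complement C5a, averaged 8.45 in high and 7.62 in low tumours. NF1, a negative regulator of RAS, differed by 0.48. On the low side, PRC1, a protein of the mitotic spindle midzone, averaged 7.83 in high and 8.19 in low tumours, and COX11, an assembly factor of cytochrome c oxidase, 9.30 in high and 9.66 in low tumours.

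The other members of the AP-1 and EGR families were mixed. Of 12 measured members, 2 had an unadjusted p under 0.05 on the high side, against 5.97% of all genes, and 0 on the low side. The median difference was -0.00. JUN, the main partner of FOS, lay at 9.12 to 12.25 in high tumours (median 9.66) and at 8.27 to 10.70 in low tumours (median 8.91). The extremes were single tumours: sample 18 was at 12.25 with the next high tumour at 10.08, and low sample 16 was at 10.70 with the next at 9.13. JUNB averaged 7.60 ± 0.47 in high and 7.18 ± 0.09 in low tumours (SD, n = 7 each), and 8.62 of sample 18 against 7.62 of the next tumour set much of that spread. FOSB differed by 0.38 with sample 18 and by 0.11 without it. ATF3, a stress-induced partner of JUN, differed by 0.59, and by 0.35 without sample 18. In a linear trend on the index over all 23 tumours, JUN, JUNB, FOSB and ATF3 rose (adjusted p = 0.012, 0.0073, 0.033 and 0.0082; limma), which is 4 of the 12 members against 2.49% of all genes. Without sample 18, 0 of the 12 passed in the trend.

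EGR2, EGR3 and EGR4, the paralogs of EGR1, had differences of -0.01, -0.11 and -0.11. EGR4 was dim, at a mean of 4.80 in high and 4.91 in low tumours, and EGR3 was at 5.25 in high and 5.37 in low tumours. FOSL1, FOSL2 and MAFF differed by -0.10, 0.04 and 0.01. BATF and BATF3, the lymphoid AP-1 members, had means of 8.25 and 8.03 in high tumours and 8.45 and 8.72 in low tumours. The mean over the 12 members was 7.37 in sample 18 and 6.66 to 6.76 in the other high tumours, inside the range of 6.57 to 6.98 in low tumours.

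Immediate early genes outside these families were more often on the high side. Of 28 measured, 24 had a positive difference, as had 5773 of all 15113 genes. An unadjusted p under 0.05 on the high side was found in 13, against 5.97% of all genes. The median difference was 0.43, against -0.05 over all genes. NR4A1, an orphan nuclear receptor induced by antigen receptor signals, lay at 6.79 to 7.69 in high and 6.25 to 6.61 in low tumours, without overlap. Its second probeset averaged 7.30 in high and 5.01 in low tumours, a difference of 2.29 ± 0.34 (SE; adjusted p = 0.052). KLF4, a zinc finger factor, lay at 9.64 to 12.64 in high tumours (median 10.85) and at 8.27 to 9.85 in low tumours (median 8.91). High sample 9, at 9.64, fell below low sample 8 at 9.85, and the other high tumours lay above all low ones. Among secreted members, EDN1 (endothelin) differed by 1.82, CCN1 by 1.78, THBS1 (thrombospondin) by 1.24 and CCN2 by 1.06. The growth factors HBEGF and AREG differed by 0.02 and -0.04. Both were close to background, at 3.50 to 4.05 and 3.56 to 4.40 in the 14 tumours. ERRFI1, an inhibitor of the EGF receptor, differed by 1.33. ID1 lay at 6.68 to 7.44 in high and 6.21 to 6.65 in low tumours. In contrast, IER2 was at 12.47 in high and 12.43 in low tumours, MYC at 11.63 in high and 11.38 in low tumours, and MCL1, a survival factor of the BCL2 family, differed by -0.10.

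The feedback inhibitors were split. Of 28 measured, 6 had an unadjusted p under 0.05 on the high side (5.97% of all genes) and 0 on the low side (5.79% of all genes), with a median of 0.13. DUSP1, the phosphatase that inactivates MAP kinases, lay at 10.53 to 12.81 in high tumours (median 11.58) and at 9.29 to 10.52 in low tumours (median 9.86). The groups touched but did not overlap, and the means differed by 1.72 ± 0.29 (SE; adjusted p = 0.071). RGS2, which shortens G protein signals, averaged 11.27 ± 0.80 in high and 9.20 ± 0.92 in low tumours (SD, n = 7 each), and its 3 probesets differed by 2.07, 1.93 and 1.93. PPP1R15A differed by 0.96, SPRY1 by 0.55 and ZFP36 by 0.51. SOCS1, SPRED1 and TRIB1 had differences of -0.14, -0.14 and -0.15, but SPRED1 was close to background, at 3.82 to 4.40 in the 14 tumours. The upstream list of RAS, MAP kinases and the factors that act on FOS and EGR1 had a median of -0.06 over 28 genes, with 1 on the high side and 2 on the low side at an unadjusted p under 0.05, against 5.97% and 5.79% of all genes. SRF, which binds the promoters of immediate early genes, was at 10.90 in high and 10.86 in low tumours, and ELK1 at 6.72 in high and 6.87 in low tumours.

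**Figure D2:**
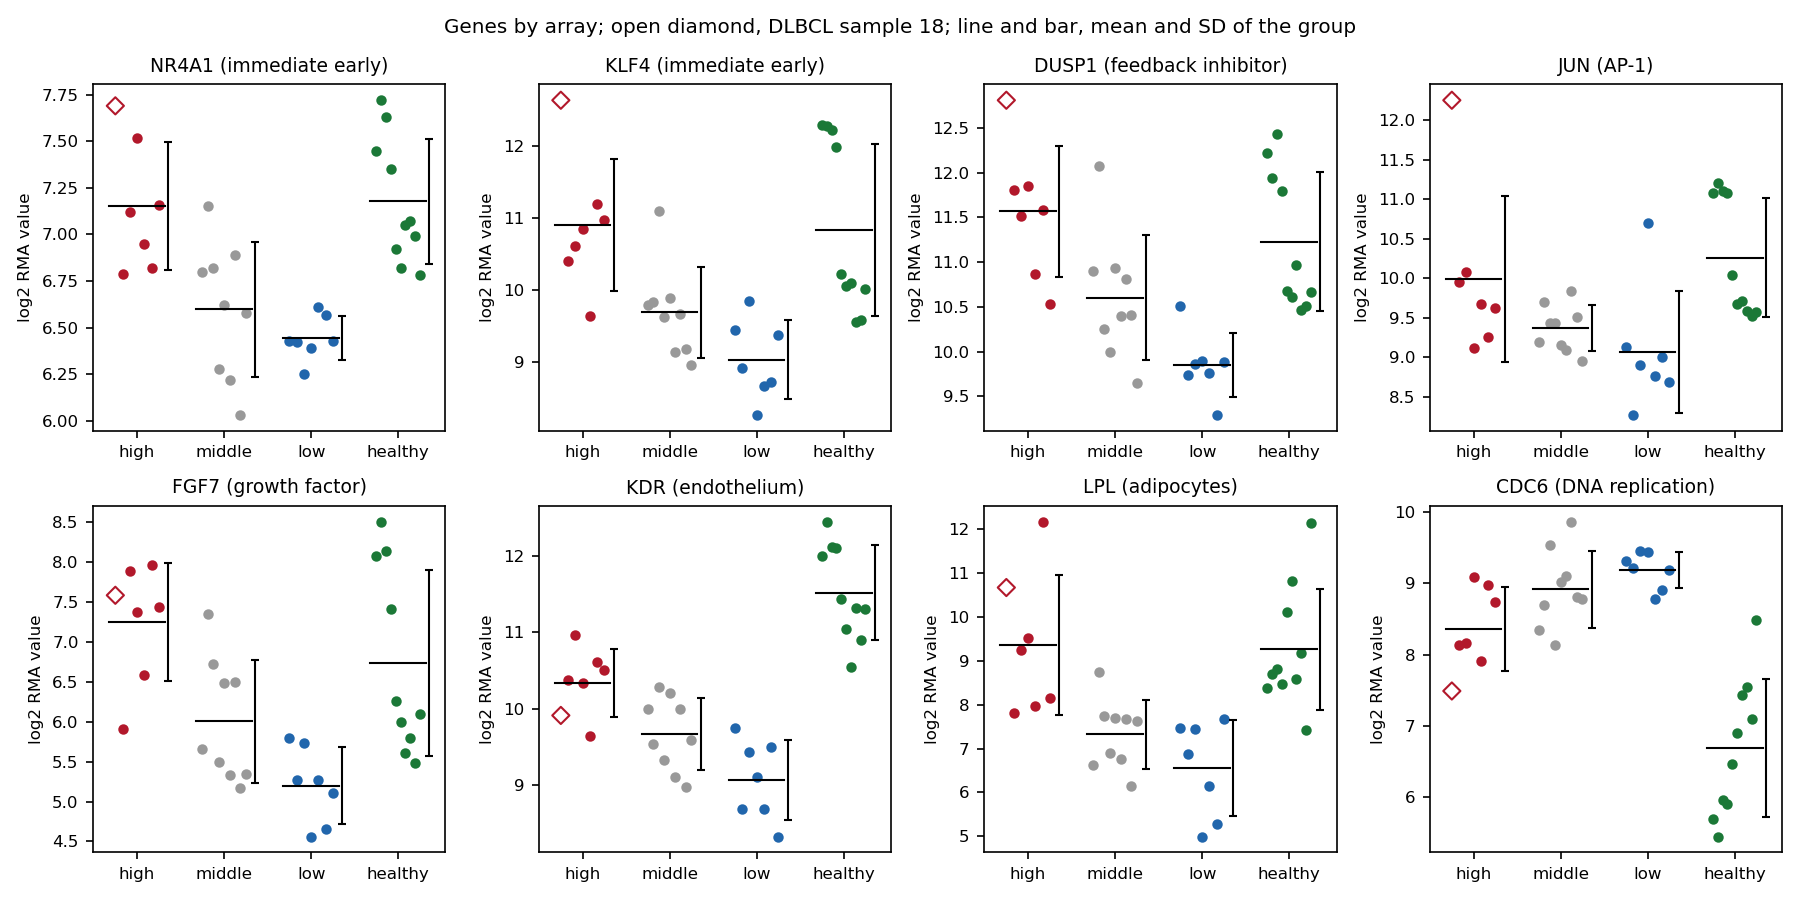
Log2 RMA value of 8 genes in each array of the high, middle, low and healthy groups, with the group mean (line) and SD (bar); the open diamond is DLBCL sample 18. FGF7, DUSP1, NR4A1 and LPL separate the 7 high from the 7 low tumours, while JUN, KLF4, KDR and CDC6 overlap. In JUN the diamond is at 12.25, above all other arrays.

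Genes of stromal and vascular cells made up the lists with the largest positive medians. Of all genes, 5.97% had an unadjusted p under 0.05 on the high side and 5.79% on the low side. In bulk biopsies, more cells of a type and more RNA per cell cannot be told apart. Of 19 endothelial genes, 14 had an unadjusted p under 0.05 on the high side and 0 on the low side, with a median difference of 0.71. KDR, the main receptor of VEGF, lay at 9.64 to 10.96 in high tumours (median 10.38) and at 8.31 to 9.75 in low tumours (median 9.10), with an overlap of 1 high and 1 low tumour. TEK, the angiopoietin receptor, lay at 6.27 to 6.67 in high and 4.39 to 5.96 in low tumours, and ESAM, an adhesion molecule of endothelial junctions, at 6.67 to 7.75 in high and 5.99 to 6.60 in low tumours; neither overlapped. LYVE1, a marker of lymphatic endothelium, differed by 1.48, EMCN by 1.07 and VWF by 0.73. CLDN5 and CDH5 had differences of -0.03 and -0.17. The list mean was 8.38 in sample 18, and the 7 high tumours spanned 7.99 to 8.70 against 7.27 to 8.17 in low tumours, with 6 of the 7 high tumours above all low ones.

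Of 13 genes of smooth muscle and pericytes, 7 had an unadjusted p under 0.05 on the high side and 0 on the low side (median 0.84). MCAM, an adhesion molecule of pericytes and endothelium, averaged 11.54 ± 0.56 in high and 10.26 ± 0.36 in low tumours (SD, n = 7 each). RGS5, a pericyte marker, differed by 0.91, ACTA2 by 0.96 and CALD1 by 0.84, and CALD1 did not overlap, at 10.13 to 11.33 in high and 9.29 to 10.06 in low tumours. NOTCH3 and CSPG4, both pericyte genes, differed by -0.10 and -0.08. The list of fibroblasts and matrix had 13 of 20 genes at an unadjusted p under 0.05 on the high side and 0 on the low side (median 0.75). DCN, the proteoglycan decorin, averaged 12.23 ± 0.88 in high and 10.31 ± 1.08 in low tumours (SD, n = 7 each), and the groups overlapped. COL3A1 differed by 1.20, COL6A1 by 0.65 and PDGFRB by 0.65, while THY1 differed by -0.03. FGF7 was not a member of this list. The means of the fibroblast list overlapped more than those of vessels, at 10.01 to 11.16 in high and 9.04 to 10.57 in low tumours, with 4 of 7 high tumours above all low ones.

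Adipocyte genes had the largest median, 1.80 over 10 genes, with 8 at an unadjusted p under 0.05 on the high side and 0 on the low side. LPL, lipoprotein lipase, lay at 7.81 to 12.17 in high tumours (median 9.24) and at 4.99 to 7.67 in low tumours (median 6.87). ADIPOQ, the hormone adiponectin, lay at 7.06 to 13.06 in high tumours (median 8.95) and at 4.61 to 7.89 in low tumours (median 6.34). Sample 22 carried the highest levels, with a list mean of 10.41, and sample 18 followed at 9.49, while the low tumours ranged between 6.34 and 7.60. FABP4 was at 14.41 in sample 22 and at 11.36 to 13.41 in the other high tumours, against 8.27 to 12.10 in low tumours. PLIN1 and LIPE differed by -0.11 and 0.00. Without sample 18 the list median was 1.55. The RIN of sample 22 was 8.9, the lowest of the 14 tumours, and that of sample 18 was 9.1; with RIN as a covariate the median was 0.47. The part of RNA integrity in these values was not tested further.

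**Figure D3:**
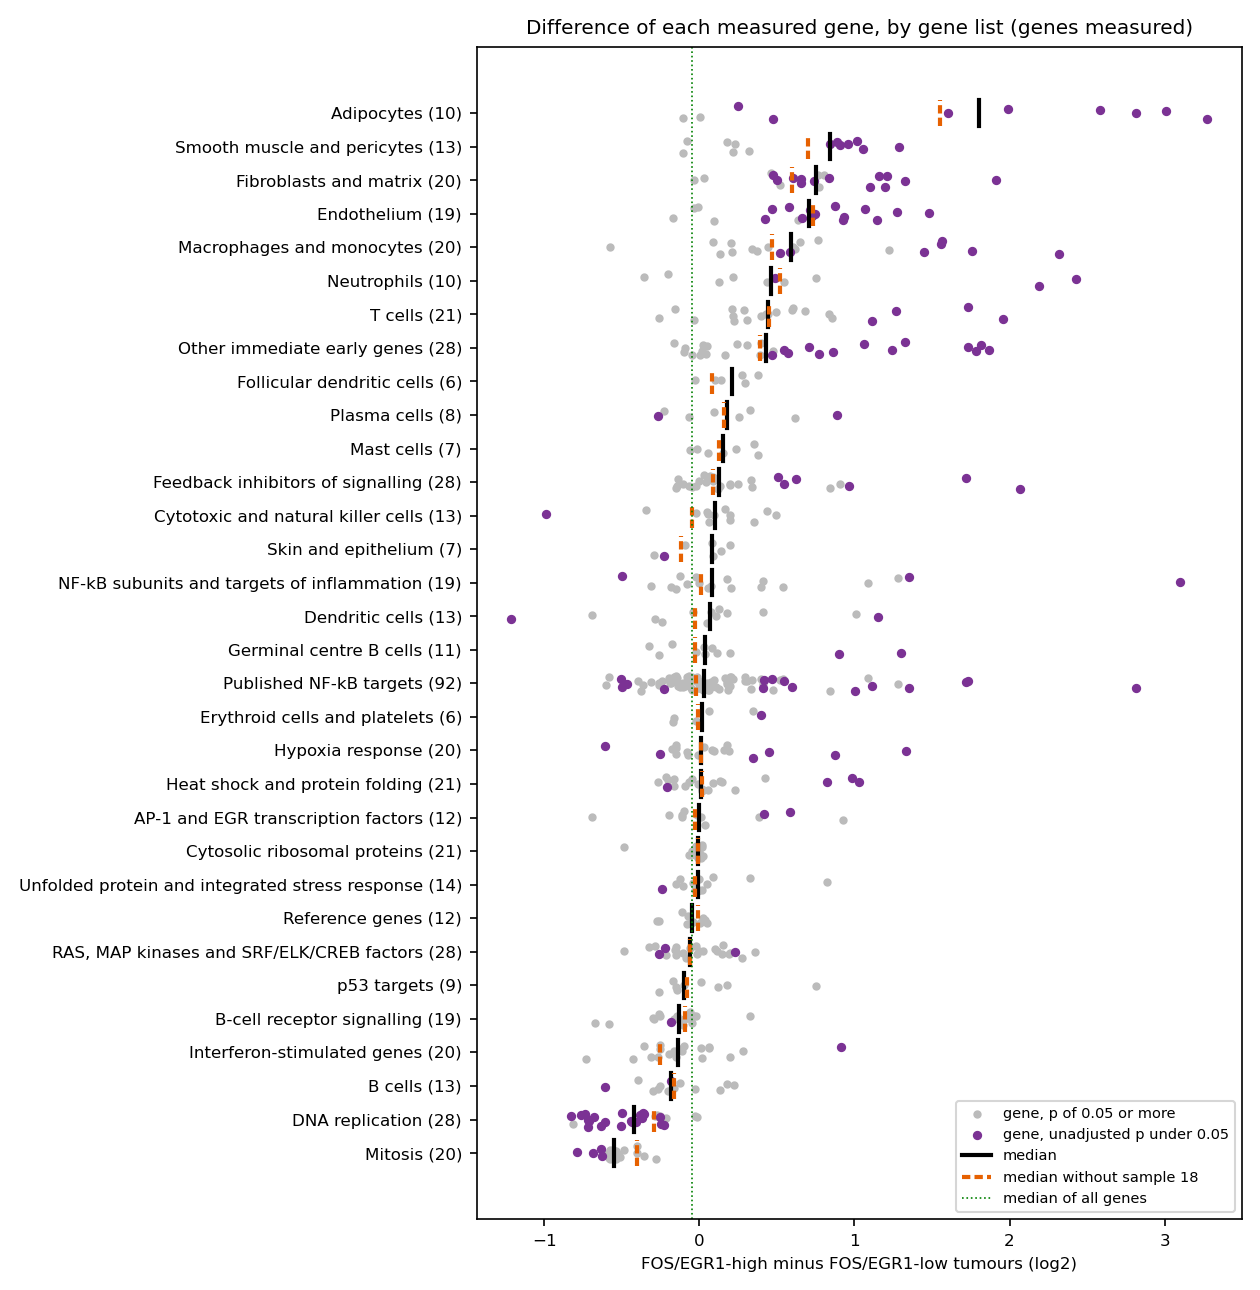
Difference of each measured gene between high and low tumours (log2, high minus low) by gene list, with the number of genes measured in brackets. Purple points have an unadjusted p under 0.05, black bars are list medians, orange dashed bars are medians without sample 18 and the green dotted line is the median of all genes, -0.05. Adipocyte, vessel and fibroblast lists lie to the right at medians of 0.71 to 1.80, and the replication and mitosis lists to the left at -0.42 and -0.55.

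Markers of macrophages had a median of 0.59 over 20 genes, with 7 at an unadjusted p under 0.05 on the high side, against 5.97% of all genes, and 0 on the low side. FCGR1A, the high-affinity IgG receptor, lay at 7.57 to 10.19 in high tumours (median 9.30) and at 4.97 to 7.91 in low tumours (median 6.61). MRC1, the mannose receptor, differed by 1.56 and SLC11A1 by 1.76. The complement genes C1QA, C1QB and C1QC differed by 0.62, 0.65 and 0.60 with wide errors (SE 0.38 to 0.45), and CD68 by 0.13. APOE had the opposite sign, at -0.57. Of 10 neutrophil genes, 3 had an unadjusted p under 0.05 on the high side: S100A8 and S100A9, the calgranulins, differed by 2.43 and 2.19, and CSF3R by 0.49. The granule genes MPO and ELANE differed by 0.22 and -0.20. T-cell genes had a median of 0.44, with 4 of 21 on the high side and 0 on the low side. CTLA4, an inhibitory receptor, lay at 6.98 to 10.61 in high and 5.36 to 9.43 in low tumours, a wide overlap, and CD3D and CD4 differed by 0.22 and -0.16.

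NF-κB, a transcription factor family of inflammation and lymphocyte survival, was a pathway that the study of these arrays examined in particular. The median difference was 0.08 over 19 of its subunits and inflammatory targets, and 0.03 over 92 genes of a longer published target list, matched by symbol. That list names CXCL8 by its older symbol IL8, so CXCL8 was not among the 92. EGR1, also on that list, was left out as an index gene. Of the 92, 11 had an unadjusted p under 0.05 on the high side, against 5.97% of all genes, and 4 on the low side, against 5.79%. A pair of chemokines stood out among the 19. CXCL8, which attracts neutrophils, lay at 6.94 to 11.48 in high tumours (median 8.29) and at 3.97 to 6.89 in low tumours (median 5.41), without overlap. Its means differed by 3.10 ± 0.70 (SE; adjusted p = 0.12), and by 2.63 without sample 18. Its 2 dimmer probesets overlapped between the groups and differed by 0.54 and 1.04. CCL2, which attracts monocytes, averaged 13.01 ± 0.62 in high and 11.66 ± 0.31 in low tumours (SD, n = 7 each), with a single high tumour, sample 12 at 12.05, below the highest low tumour at 12.15. IL6 did not separate the groups. It lay at 6.45 to 9.47 in high and 4.81 to 11.13 in low tumours, so that the highest level of the 14 tumours was in the low group. TNF averaged 7.55 in high and 7.86 in low tumours.

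**Figure D4:**
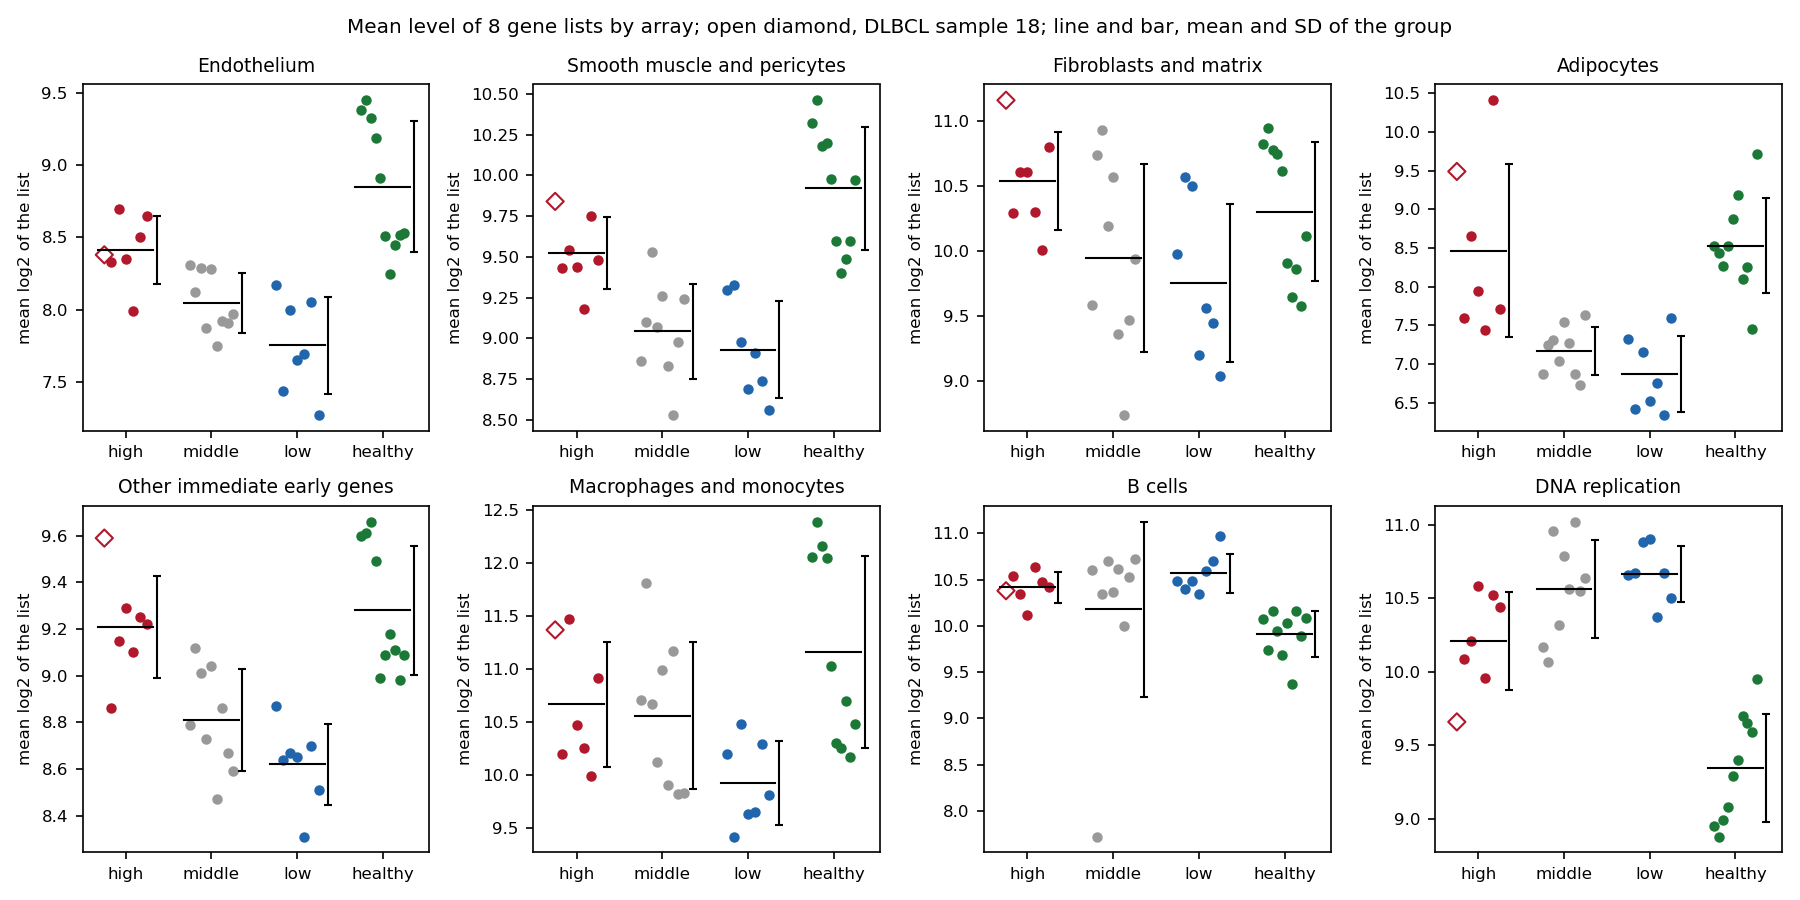
Mean log2 value over the genes of 8 lists in each array of the high, middle, low and healthy groups, with the group mean (line) and SD (bar); the open diamond is DLBCL sample 18. Vessel and immediate early lists are higher in 6 of 7 high tumours than in every low tumour. The adipocyte list is highest in sample 22, at 10.41, and the replication list is lowest among tumours in sample 18, at 9.66.

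Genes of proliferation lay on the low side. All 28 measured genes of DNA replication had the lower mean in high tumours (median -0.42), as had 9340 of all 15113 genes. Of the 28, 21 had an unadjusted p under 0.05, against 5.79% of all genes. CDC6, which loads the replicative helicase, lay at 7.49 to 9.09 in high tumours (median 8.16) and at 8.78 to 9.45 in low tumours (median 9.21). MCM2, a subunit of that helicase, averaged 7.63 ± 0.58 in high and 8.35 ± 0.19 in low tumours (SD, n = 7 each). FEN1, a flap nuclease, differed by -0.44 and PCNA, the sliding clamp, by -0.25. Of 20 genes of mitosis, all had negative differences (median -0.55), and 4 had an unadjusted p under 0.05. TPX2, a spindle factor, averaged 9.20 ± 0.69 in high and 9.99 ± 0.55 in low tumours (SD, n = 7 each), and BIRC5 (survivin) 9.94 in high and 10.56 in low tumours. Of the 23 tumours, sample 18 had the lowest replication mean, 9.66, and the lowest mitosis mean, 8.94. Without it the medians were -0.29 and -0.40, and 17 of 28 replication genes and 1 of 20 mitosis genes had an unadjusted p under 0.05 on the low side.

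Lists of B cells and of B-cell receptor signalling had medians of -0.18 and -0.13. POU2AF1, a B-cell coactivator, averaged 9.67 ± 0.27 in high and 10.28 ± 0.38 in low tumours (SD, n = 7 each), with a difference of -0.61 ± 0.17 (SE; adjusted p = 0.18). BCL6, the germinal centre repressor, averaged 10.99 in high and 10.09 in low tumours, where sample 20 was low at 8.44. The B-cell list means overlapped, at 10.12 to 10.64 in high and 10.35 to 10.97 in low tumours. The lowest tumour in this list, at 7.72, was sample 5 of the middle group. Of the other cell type lists, the medians were 0.04 for germinal centre B cells, 0.18 for plasma cells, 0.10 for cytotoxic and natural killer cells, 0.07 for dendritic cells, 0.15 for mast cells, 0.21 for follicular dendritic cells, 0.02 for erythroid cells and platelets, and 0.08 for skin and epithelium.

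Lists of other stress responses had medians near that of all genes. Those of heat shock and protein folding (21 genes), the unfolded protein response (14 genes), hypoxia (20 genes) and p53 targets (9 genes) were 0.01, -0.01, 0.01 and -0.10. Single members differed more. The small heat shock proteins HSPB1 and HSPB8 differed by 1.03 and 0.82. In the hypoxia list, ADM (adrenomedullin) differed by 1.33 and EPAS1, a hypoxia-inducible factor of endothelium, by 0.88, but the glycolytic members LDHA, ENO1 and HK2 each differed by -0.15. Interferon-stimulated genes varied widely within both groups, with list means of 8.02 to 10.91 in high and 7.73 to 10.97 in low tumours. Their median difference was -0.14 over 20 genes, -0.69 among treatment naïve tumours and 1.01 within array day 1. The 12 reference genes and 21 ribosomal protein genes had medians of -0.05 and -0.01.

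The 9 middle tumours had not been used in the comparison. For FGF7 the means were 7.24 in high, 6.00 in middle and 5.20 in low tumours. Sample 5, a middle tumour with high FOS (10.90) and low EGR1 (8.42), carried the highest levels of the 23 tumours in several genes of the high side, such as CXCL8 (11.73), RGS2 (13.96) and FCGR1A (13.49). Of the 23 tumours it also had the lowest B-cell list mean, 7.72, and the highest means of neutrophil and mast cell genes, 9.91 and 9.35. Healthy nodes had means of 9.06 for CXCL8, 11.52 for KDR and 6.70 for CDC6, nearer to the high than to the low tumours. In DUSP1, CCL2 and DCN, the arrays of the dog that gave 4 mostly lay above those of the other healthy dogs. DUSP1 was at 11.80 to 12.43 in its arrays and at 10.46 to 10.97 in theirs. CCL2 was at 11.81 to 12.83 and at 11.09 to 11.81, and DCN at 12.21 to 12.60 and at 7.02 to 10.93. The healthy means of 11.23, 11.89 and 10.41 for these genes therefore weighed that dog 4 times. The same holds for the healthy means of KDR and CDC6. KDR was at 12.00 to 12.45 in the arrays of that dog and at 10.54 to 11.44 in the other healthy dogs. CDC6 was at 5.45 to 5.96 in that dog and at 6.47 to 8.49 in the others.

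A linear trend on the index used all tumours rather than the 2 ends. Over the 22 tumours without sample 18, a choice made after seeing the data, 16 genes rose with the index at an adjusted p under 0.05 (0.106%; limma) and 0 fell (0%). DUSP1 had the smallest adjusted p, 0.0044, and rose by 0.63 ± 0.09 (SE) per unit of the index. Of the immediate early list, those that passed were KLF4 (0.60 ± 0.11, SE) and CCN1 (0.67 ± 0.12, SE). KDR and LYVE1 of endothelium rose by 0.52 ± 0.09 and 0.59 ± 0.11 (SE), and CCL2 by 0.48 ± 0.09 (SE). FGF7, TCIM, MAP4K3 and MYCT1 passed as well. The remaining genes were EDNRA (a receptor of endothelin), LAMA4 (a laminin of vessel basement membrane), CYP1B1 (a cytochrome P450), CD9 (a tetraspanin), LDB2 and ITIH3. KDR and LYVE1 belong to the endothelial list, whose mean lay above all low tumours in 6 of 7 high tumours, and the part of cell composition in the trend was not tested. Samples 11 and 12 in this fit came from the same dog. Without sample 11, a repeat added after seeing the data, 15 genes passed, of which 13 were among the 16, and TCIM, MAP4K3 and LDB2 were not. With sample 18 included, the trend counts were 377 genes that rose (2.49%) and 164 that fell (1.09%).

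The group comparison was repeated within treatment, array day and RIN. Among treatment naïve tumours (3 high and 7 low), 10 genes passed on the high side (0.0662%) and 0 on the low side in limma. FGF7 (2.54, adjusted p = 0.0095) and DUSP1 (1.80, adjusted p = 0.0155) were among them. Within array day 1 (3 high and 4 low tumours), 0 genes passed, and FGF7 and DUSP1 differed by 2.05 and 1.42. With RIN as a covariate 0 genes passed, and the smallest adjusted p outside FOS and EGR1 was 0.73 (limma). The counts at an unadjusted p under 0.05 were 413 higher and 370 lower of 15113 genes, against 902 and 875 without the covariate. FGF7 and DUSP1 then differed by 1.56 and 1.57, at adjusted p of 0.794 and 0.918. The list medians of endothelium stayed between 0.60 and 0.83 and those of immediate early genes between 0.34 and 0.49 over these settings and without sample 18. The median of smooth muscle and pericytes stayed between 0.64 and 0.88, that of T cells between 0.32 and 0.55, and that of fibroblasts between 0.55 and 0.86. That of adipocytes varied between 0.47 and 2.65, that of mitosis between -0.55 and -0.06, that of DNA replication between -0.42 and -0.19, that of macrophages between 0.31 and 0.61, and that of neutrophils between 0.02 and 0.75. The parts of treatment and RNA integrity in the differences between the groups were not tested beyond these repeats.

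**Figure D5:**
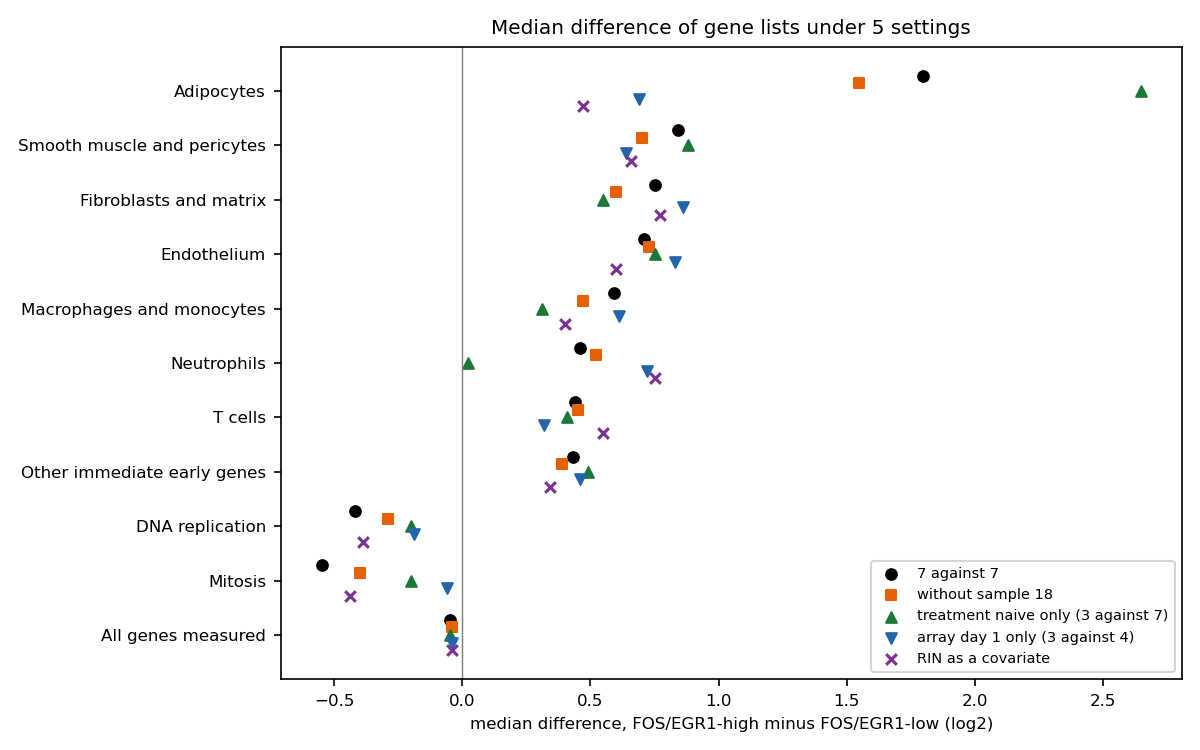
Median log2 difference, high minus low, of the 10 lists with a median of at least 0.4 in size, and of all genes, under 5 settings: all 7 against 7 tumours, without sample 18, treatment naïve tumours only, array day 1 only, and RIN as a covariate. Endothelial medians stay at 0.60 to 0.83, whereas adipocyte medians spread between 0.47 and 2.65 and mitosis medians between -0.55 and -0.06.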

How the data were processed

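The authors scanned Affymetrix Canine Genome 2.0 arrays, summarised them by RMA in Affymetrix Expression Console and deposited log2 expression values, 1 per probeset and array (43035 probesets, 33 arrays). Their own tests were run in Partek. RMA gives the arrays a common distribution, so shifts shared by most genes are removed, and dim probesets are compressed. Array medians lay at 6.85 to 6.97, and the unused sample columns numbered 0. The number of arrays limits the precision.

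Symbols came from the platform annotation: 29264 probesets had 1 symbol and 439 had several, and each of 15115 genes was represented by the probeset with its highest average over the 33 arrays. The 7 tumours of highest and the 7 of lowest mean log2 value of FOS and EGR1 were set against each other in limma 3.58.1 (lmFit and eBayes; R 4.3.3), with Benjamini-Hochberg adjustment over all probesets, and a gene was called at an adjusted p under 0.05. RIN and age were compared by exact permutation of tumours, and figures and counts were made with Python 3.11.15. The procedure was tested on simulated data. Each tumour in the comparison came from a different dog, so p-values measure the spread between dogs. The fits over all tumours hold samples 11 and 12 of the same dog as separate tumours, and the trend was repeated without sample 11.

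The members, the index genes, the 32 gene lists and the tests were chosen with earlier results of these data known. Named genes are FOS and EGR1, the measured AP-1 and EGR members, the 10 genes of smallest p in each direction (since 0 were called), the 2 members of smallest p of each other list, and further list members as examples. Array days were read for 18 DLBCL arrays from dated array names in the study's supplement and stayed unknown for the others. The names were matched to the labels by sample number, which is an assumption. Alternatives were other group sizes and index genes, all tumours in 3 groups or as a trend, covariates, normalizations, a filter at the 25th percentile, the mean of a gene's probesets, the methods' ANOVA, and leaving out tumours.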

Additional observations from a re-analysis of the deposited data

Results flagged for a closer look

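In groups of 7 tumours, a value was listed when the highest or lowest tumour lay far from its nearest neighbour relative to the range of the group. FOS and EGR1, which chose the groups, were left out. Of 244 groups checked, 20 were listed, and chance alone lists about 1 in 20.

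DLBCL sample 18, whose index was the highest, accounted for 6 of the 20, always as the highest high tumour. It was at 12.25 in JUN, 8.29 in FOSB, 8.62 in JUNB and 8.02 in ATF3. Its mean of the AP-1 and EGR list was 7.37 and that of the feedback inhibitors 8.42. The other high tumours listed were sample 23 as the highest in MYCT1 (8.22), sample 22 as the lowest in MME (7.13) and in the mean of follicular dendritic cell genes (9.37), and sample 3 as the lowest in NCR1 (3.88) and CCL17 (6.03).

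Among low tumours, sample 16 was the highest in JUN (10.70) and in the mean of the AP-1 and EGR list (6.98). Sample 20 was the highest in XBP1 (12.20) and the lowest in RPS4X (9.57) and BCL6 (8.44). Sample 6 was the highest in PPBP (7.31) and the lowest in the mean of NF-κB subunits and inflammatory targets (8.56). Sample 25 was the highest in RPL15 (14.40), and sample 15 the lowest in the mean of interferon-stimulated genes (7.73).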

How the results depend on the processing

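Counts of genes passing an adjusted p of 0.05 depended on how the tumours entered the fit. They were 0 higher and 0 lower in the comparison of 7 with 7 tumours, without sample 18, with 5 against 5 tumours, with groups set by EGR1 alone (the same 14 tumours), with RIN as a covariate, after cyclic loess or median centring, in the methods' ANOVA, with the mean of a gene's probesets, and within array day 1 (chosen after seeing the data, as were the fits over 22 and 21 tumours). On the high side the counts were 30 with all 23 tumours in 3 groups (2 without sample 18), 377 for a trend over 23 tumours (16 over 22 without sample 18, and 15 over 21 without samples 18 and 11), 11 with groups by FOS alone, 10 in treatment naïve tumours, 4 after the filter on dim probesets, 2 with earlier chemotherapy and 1 with array day in the model, and 1 without sample 12, whose dog gave 2 arrays. On the low side they were 1 in 3 groups and 164 for the trend over 23 tumours. Leaving out each tumour in turn gave 0 to 50 genes on the high side and 0 to 1 on the low side, the largest counts being 50 and 1 without high sample 9 and 13 and 0 without low sample 25. The cause of these shifts was not tested. After cyclic loess, 1117 genes were higher and 486 lower at an unadjusted p under 0.05, against 902 and 875 in the comparison as reported. The RIN difference was -0.386 and, without sample 18, -0.326 (exact permutation, two-sided p = 0.1).

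Of the values of 90 named genes over all settings, 2909 kept their direction and their side of the threshold, 104 newly passed it and 38 reversed. With earlier chemotherapy in the model, and identically in treatment naïve tumours, FOSB was -0.02, EGR2 0.08, MAFF -0.02, RPL15 0.02 and TNFSF11 -0.21. FOSL2 was -0.05 with 5 against 5 tumours and -0.02 as the mean of its probesets, and VLDLR was 0.50 as such a mean. EGR2 was 0.01 with 5 against 5 tumours and by FOS alone, 0.02 in the trend, 0.03 after loess and 0.04 without sample 12. EGR3 was 0.02 with RIN. BATF was 0.08 and MAFF -0.03 with array day, and HERC5 0.15. Within day 1, BATF was 0.02, HERC5 1.02 and MS4A2 -0.00. MAFF was -0.01 after median centring and -0.02 without sample 12. With each tumour left out, EGR2 ranged between -0.10 and 0.04 and MAFF between -0.06 and 0.07. No paired analysis was possible because the compared tumours came from different dogs and no sample number occurs in both groups. Values near 4 are close to the control probesets, so differences between dim probesets are bounded by the background.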
